A study of Mus musculus with 2343 samples.

Results

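The genes described are those of the cytosolic ribosomal proteins, chosen by name: every gene row whose symbol is Rps, Rpl or Rplp followed by digits and at most 1 of the letters a, l or x. This gave 80 of the 45317 gene rows, of which 31 encode small subunit proteins (Rps), 46 large subunit proteins (Rpl) and 3 proteins of the stalk (Rplp). The rule takes in 5 paralogues, Rpl3l, Rpl10l, Rpl39l, Rps4l and Rps27l. It leaves out ribosomal proteins with other kinds of name, such as Rpsa, Fau, Rack1, Rps3a1 and Rpl36al. It also leaves out 245 rows of processed copies whose symbols end in -ps, in most rows with a number after it. Copies with other kinds of name were not looked for, so counts and sums of -ps rows may miss some. All 80 symbols matched the RefSeq annotation, and the genes lie on 19 chromosomes, with 14 on chromosome 7.

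RNA had been amplified with SMART-seq2 from thymic epithelial cells of mice, the stromal cells of the thymus on which T cells mature and are selected. Cortical cells (cTECs) labelled WT had the strain Eedflfl and those labelled Eed had Eedflfl::beta5tCre. Medullary cells with high MHC class II (mTEChi) labelled WT had the strain Eedflfl::ZsGreen. Medullary Eed cells had Eedflfl::ZsGreen::beta5tCre and were sorted as ZsGreen negative (ZsGneg) or positive (ZsGpos). All groups, WT included, thus carried the floxed Eed allele, and the Cre is named for beta5t (Psmb11), a proteasome subunit of cortical epithelium. Eed is a subunit of Polycomb repressive complex 2. The labels state neither ages nor the number of animals nor what ZsGreen reports.

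Most of the 80 proteins, together with some that the rule leaves out and the ribosomal RNAs, build the ribosome. The small subunit decodes the mRNA, the large subunit forms the peptide bond, and the stalk recruits the elongation factors. Their mRNAs are among the most abundant of a cell and commonly begin with a run of pyrimidines, through which growth signals set their translation. Most of these genes have processed copies elsewhere in the mouse genome, which makes short reads hard to assign.

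Bulk libraries of about 1000 mTEChi cells comprised 4 ZsGneg, 4 ZsGpos and 9 WT libraries. The WT libraries were summed by the number in their title to 3 units, so that 11 units entered the comparisons. Bulk libraries held 10519116 to 14990893 gene counts, and the 9 small pools of 100 mTEChi cells on plate SCGC1373 held 10332 to 180374. After filtering, 270 WT and 329 Eed cTECs and 285 WT, 322 ZsGneg and 216 ZsGpos mTEChi cells remained, with no cell identical to another. Eed itself had 29.9 to 51.5 CPM, its counts scaled to a common total of gene counts, in the 3 WT units, 49.4 to 97.9 in ZsGneg and 17.1 to 85.8 in ZsGpos units. Counts over the whole gene do not show whether its floxed part was removed. The mTEChi markers Aire (208, 140.3 and 252 CPM on average in WT, ZsGneg and ZsGpos units) and H2-Aa (6268, 8274 and 3522 CPM) were present in all 3 groups. Whether units stem from different animals is not labelled, and the tests therefore reflect the spread among these samples, which may be technical.

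In bulk, ribosomal protein genes took a larger part of the RNA of ZsGneg cells than of WT or ZsGpos cells. Their share of gene counts was 7.38%, 6.03%, 6.22% and 5.23% in the 4 ZsGneg units. It was 3.74%, 4.09% and 4.74% in the 3 WT units, and 3.76%, 3.52%, 3.59% and 3.18% in the 4 ZsGpos units. Every ZsGneg unit lay above every WT and ZsGpos unit, while WT and ZsGpos units overlapped. The means were 6.21% ± 0.886 (SD, n = 4) in ZsGneg, 4.19% ± 0.506 (SD, n = 3) in WT and 3.51% ± 0.244 (SD, n = 4) in ZsGpos cells. No test was made on this sum over genes.

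Several other features of the libraries moved with these groups, and their part in the results was not tested. Reads that fell outside genes made up 18.9% to 24.04% in ZsGneg, 25.9% to 32.3% in WT and 31.2% to 35.9% in ZsGpos units. The mitochondrial genome (mt- genes) took 5.54% to 7.83%, 7.23% to 7.74% and 9.15% to 14.9% of gene counts in the same order. The summed markers of medullary cells were at 13427 to 15274, 11400 to 12940 and 8077 to 9081 CPM, with all 15 of 15 detected in each group. Much of this sum is H2-Aa, at 8274, 6268 and 3522 CPM on average, whereas Krt5 was at 304, 123.0 and 806 CPM. For ZsGpos against ZsGneg, 4 of the 15 were called lower and 1 higher, beside 2.04% and 0.623% of all genes, and 10 had a log2 fold change below 0. The 10 fibroblast markers summed to 243 to 453 CPM in ZsGneg units, with Dpt at 0, 142.2 to 217 in WT and 369 to 495 in ZsGpos units. The 16 thymocyte markers summed to 124.9 to 239.5, 71.4 to 108.7 and 125.7 to 454 CPM, with Rag2 at 0 in ZsGneg and WT units. In bulk samples, fewer cells of a type and less RNA per cell cannot be told apart.

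**Figure D1:**
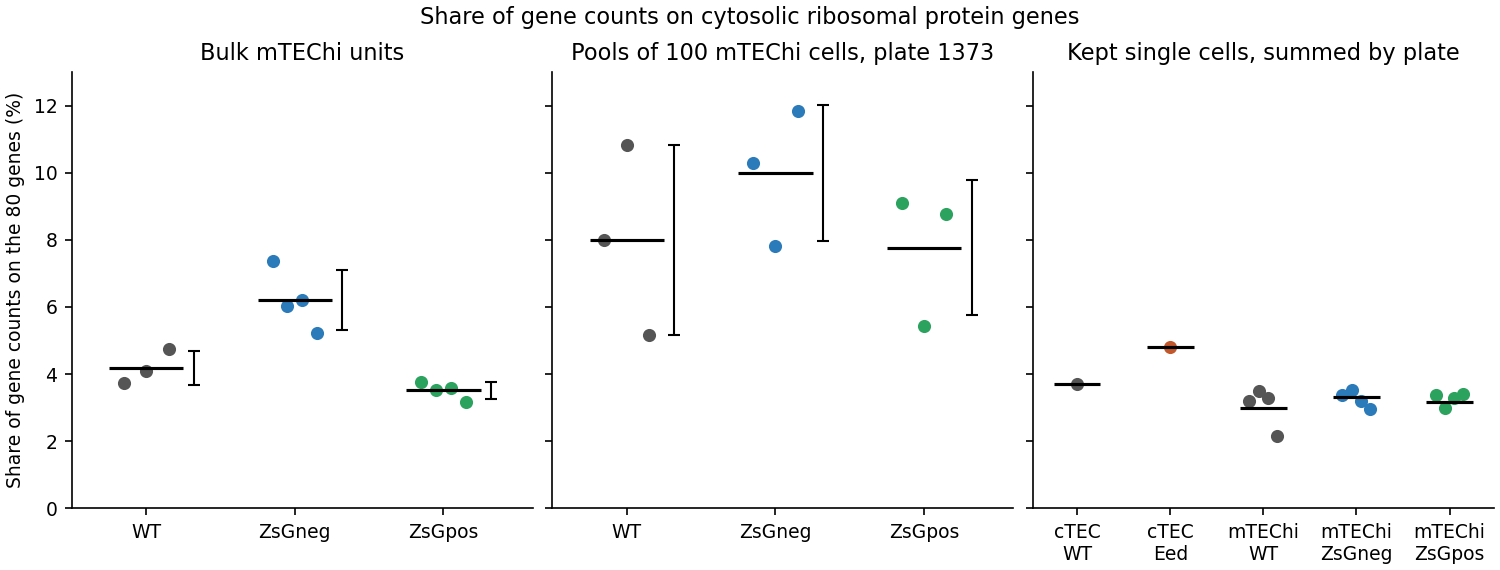
Share of gene counts (%) on the 80 ribosomal protein genes in bulk units, in the 9 pools of plate SCGC1373 and in single cells summed by plate. Points are units, wells or plates, horizontal lines are means (for single cells, the value over all cells of the group), and bars are SDs. ZsGneg bulk units lie between 5.23% and 7.38%, above all WT and ZsGpos units, whereas pools of the 3 groups overlap.

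Between the 2 sorted Eed populations, ribosomal protein genes of both subunits were lower in ZsGpos than in ZsGneg cells. Of the 80 genes, 77 had enough counts to be tested. Rpl3l, Rpl10l and Rpl39l, the copies known from muscle and testis, did not, with at most 5.23 CPM in any unit. By the quasi-likelihood test of edgeR with Benjamini-Hochberg adjustment over 18931 genes, 25 of the 77 passed the adjusted p of 0.05 as lower and 0 as higher. Over all genes tested, 2.04% passed as lower and 0.623% as higher. The median log2 fold change of the 77 was -0.67, against 0.14 for all genes, and 11 of the 77 had a log2 fold change above 0, against 54.2% of all genes. In 34 of the 77 all 4 ZsGpos units lay below all 4 ZsGneg units (4.69% of all genes) and in 1, Rpl21, named after its values were seen, they lay above (5.93%).

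By subunit, 14 of the 31 small subunit genes tested were lower, with a median log2 fold change of -0.91 over the 31. Of the 43 large subunit genes tested, 10 were lower and the median was -0.65, and of the 3 stalk genes 1 was lower and the median was -0.54. The difference between subunits was not tested.

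Rps14, a small subunit protein needed to mature the 18S ribosomal RNA, had the lowest log2 fold change of the 77. Its levels were 2479, 2034, 2120 and 1977 CPM in ZsGneg units and 763, 596, 577 and 597 CPM in ZsGpos units. The WT units lay between, at 1038, 1206 and 1350 CPM, and no 2 of the 3 groups overlapped. The log2 fold change from ZsGneg to ZsGpos was -1.83 (SE 0.140, edgeR adjusted p = 6.56e-05).

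Rps19, whose human counterpart is the gene most often mutated in Diamond-Blackfan anaemia, had 3395, 3095, 2946 and 2620 CPM in ZsGneg units and 1457, 1333, 1184 and 1273 CPM in ZsGpos units. These did not overlap, and the WT units (1359, 1521 and 1731 CPM) reached from within the ZsGpos range to above it. The log2 fold change was -1.27 (SE 0.121, edgeR adjusted p = 0.000185). Rps9, a small subunit protein that binds 18S ribosomal RNA early in assembly, had 1708, 1267, 1611 and 1573 CPM in ZsGneg and 501, 514, 431 and 553 CPM in ZsGpos units, and 616, 718 and 881 CPM in WT units. Again no 2 groups overlapped, and the log2 fold change was -1.69 (SE 0.161, edgeR adjusted p = 0.000185).

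Among large subunit genes, Rpl41, which encodes a very short basic peptide, fell from 5071, 4638, 4124 and 3419 CPM in ZsGneg units to 2306, 1927, 1725 and 1761 CPM in ZsGpos units, a log2 fold change of -1.22 (SE 0.139, edgeR adjusted p = 0.000627). The 2 populations did not overlap. Rplp0, the base of the stalk, fell from 1607, 1205, 1807 and 1791 CPM to 519, 699, 523 and 504 CPM, a log2 fold change of -1.58 (SE 0.194, edgeR adjusted p = 0.000947). The other stalk genes, Rplp1 and Rplp2, had log2 fold changes of -0.44 and -0.54 and did not pass (edgeR adjusted p = 0.263 and 0.123).

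**Figure D2:**
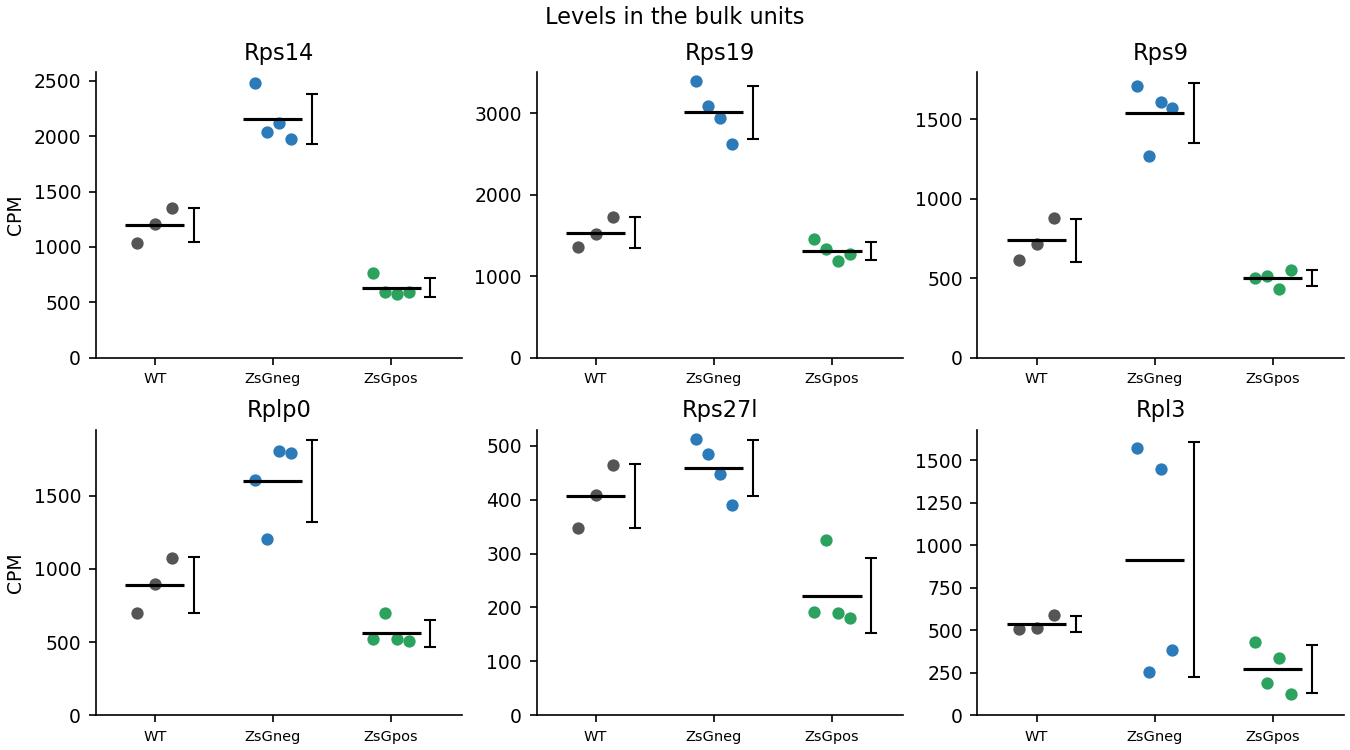
Levels (CPM, linear axes from 0) of 6 ribosomal protein genes in the 3 WT, 4 ZsGneg and 4 ZsGpos bulk units. Points are units, lines are means and bars are SDs. Rps14, Rps19, Rps9 and Rplp0 are highest in every ZsGneg unit, Rps27l is lowest in the ZsGpos units, and Rpl3 splits the ZsGneg units into 2 high and 2 low ones.

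Other genes of known role differed in how firmly they moved. Rps3 at the mRNA entry (log2 fold change -1.11), Rps4x, encoded on the X chromosome (fold 0.4995), and Rps28 (-0.92) fell. Rpl11, which with Rpl5 and 5S ribosomal RNA can bind Mdm2, fell by 1.56 on the log2 scale (edgeR adjusted p = 0.0164), while Rpl5 had -0.90 and did not pass (0.187). Rpl10, which joins the large subunit late (-0.84, edgeR adjusted p = 0.0461), and Rpl38, known for its part in translating Hox mRNAs (-0.81, 0.0394), passed narrowly. Just past the threshold on its other side was Rpl13a (-0.61, 0.0547), known for silencing mRNAs after interferon gamma. Without at least 1 of the units, Rpl10, Rpl38 and Rpl11 lost their call, Rpl10 in 9 and Rpl38 in 10 of the 11 fits that left out 1 unit and Rpl11 in 2.

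Further members of known role did not pass. These were Rpl4 and Rpl39 of the exit tunnel (log2 fold changes of -0.67 and -0.68), Rpl22, needed in alpha-beta T cell development (-0.49), Rpl29, a heparin-binding protein (-0.80), and Rpl10a (-0.65). Among small subunit genes they were Rps25 (-0.60), Rps27 (-0.41), Rps27a, made as a fusion with ubiquitin (-0.53), Rps29 (-0.98) and Rps2 (0.19). Rpl3, which reaches towards the peptidyl transferase centre, had the second lowest log2 fold change at -1.81, but an SE of 0.519 (edgeR adjusted p = 0.0878). Its ZsGneg units were at 1572, 257, 1450 and 382 CPM and its ZsGpos units at 432, 190.7, 339 and 126.4 CPM. Rps6, the target of S6 kinase, was as uneven, at 834, 347, 1027 and 904 CPM against 462, 109, 517 and 109.0 CPM (log2 fold change -1.44, SE 0.535, edgeR adjusted p = 0.176). In both genes the 2 populations overlapped.

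Of the paralogues tested, Rps27l fell and Rps4l did not pass, and their difference was not tested. Rps27l, a copy of Rps27 known as a p53 target, had 513, 484, 448 and 391 CPM in ZsGneg units and 191.5, 326, 189.3 and 179.9 CPM in ZsGpos units. The populations did not overlap and the log2 fold change was -1.11 (SE 0.212, edgeR adjusted p = 0.0118). Rps4l had 57.5, 86.6, 71.8 and 64.8 CPM against 72.8, 27.2, 63.2 and 34.4 CPM, which overlapped (log2 fold change -0.57, edgeR adjusted p = 0.527).

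Other members lay near 0. Among them were Rpl12 (log2 fold change 0.04, SE 0.247) and Rpl31 (0.05, SE 0.165). The highest log2 fold change was that of Rpl27a at 0.55 (SE 0.290, edgeR adjusted p = 0.357).

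The 2 populations did not overlap in their share of reads outside genes, so that this share and the sort cannot be told apart in the fit. With it as a covariate, 0 of the 77 members and 0 of all 18931 genes passed, 8 of the 77 had an unadjusted p under 0.05, and the members' median log2 fold change was -0.07. With DESeq2, 40 of the 77 passed as lower, against 5.26% of all genes.

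To show what these promoters look like, 4 starts are given, for 2 of the genes that fell and for 2 of those near 0. Each line runs 5′ to 3′ from 30 bases before to 20 bases after the annotated start, from RefSeq on GRCm38.p6, with capitals marking a run of C and at least 4 more C or T that begins within 10 bases of the start. Rps9 lies on the plus strand at chr7:3704011-3704060, Rplp0 at chr5:115559437-115559486, Rpl12 at chr2:32961682-32961731 and Rpl31 at chr1:39367821-39367870, also on the plus strand.
Rps9: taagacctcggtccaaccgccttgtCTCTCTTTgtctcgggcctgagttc
Rplp0: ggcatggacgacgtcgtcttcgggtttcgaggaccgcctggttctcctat
Rpl12: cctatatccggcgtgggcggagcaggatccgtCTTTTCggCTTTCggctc
Rpl31: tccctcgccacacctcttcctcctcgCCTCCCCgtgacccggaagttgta

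Of the 59 members with a RefSeq promoter entry, 37 (62.7%) held such a run near an annotated start, against 32.6% of all 27025 genes with an entry. At the start itself it was 13 (22.03%) against 3.01%. The letters CCGGAAG, the core bound by ETS factors, lay on either strand of 24 of the 59 promoter entries (40.7%), against 9.93% of all genes. TATAAA lay in 6 (10.2%), against 15.7%. The run was present in 9 of the 18 genes called lower that have an entry and in 25 of the 38 tested and not called. Of the sequences shown, Rps9, Rpl12 and Rpl31 held the run and Rplp0 did not.

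Against WT cells, the ribosomal protein genes of ZsGneg cells leaned higher, but 1 passed the test. This was Rps19, with a log2 fold change of 0.99 (SE 0.133, edgeR adjusted p = 0.0286), all 4 ZsGneg units above all 3 WT units. Thus 1 of 77 was called higher and 0 lower, where 0.0370% and 0.00528% of all genes were. The members' median log2 fold change was 0.54, against -0.15 for all genes, and 66 of the 77 had a log2 fold change above 0, against 43.5% of all genes. In 30 of the 77 all ZsGneg units lay above all WT units (3.73% of all genes) and in 0 they lay below (10.2%).

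The nearest members past the threshold were Rps9 (log2 fold change 1.08, edgeR adjusted p = 0.0522) and Rps14 (0.86, 0.0698). Rpl27 had the highest log2 fold change, 1.69 with an SE of 1.07. Its levels were 42.4, 218.6 and 40.7 CPM in WT units and 614, 62.9, 560 and 47.2 CPM in ZsGneg units, which overlapped. Rpl5 had the lowest, -0.67, with WT units at 74.4, 273 and 249.6 CPM and ZsGneg units at 101.1, 124.8, 123.6 and 143.1 CPM (edgeR adjusted p = 0.650). The Rps19 call was lost in 7 of the 11 fits without 1 unit, and these fits gave adjusted p between 0.0234 and 0.377. Without WT 01, WT 02, WT 03, ZsGneg 01, ZsGneg 02, ZsGneg 03 or ZsGpos 02, no member passed. With DESeq2, 26 of the 77 passed as higher, against 1.17% of all genes.

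Between ZsGpos and WT cells, 1 ribosomal protein gene passed the test. Rps14 alone among the 77 was lower, with a log2 fold change of -0.97 (SE 0.145, edgeR adjusted p = 0.0111). No member was called higher, and over all genes 0.254% were lower and 0.127% higher. The members' median was -0.19, against -0.05 for all genes, and 26 of the 77 had a log2 fold change above 0, against 47.9%. All ZsGpos units lay below all WT units in 14 of the 77 (10.5% of all genes) and above them in 3 (5.28%).

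The lowest log2 fold change was that of Rpl5 (-1.57, SE 0.370, edgeR adjusted p = 0.101), with ZsGpos units at 85.6, 68.3, 49.98 and 75.6 CPM and 1 of the 3 WT units, at 74.4 CPM, among them. Rpl27a had the highest (0.95, SE 0.320, edgeR adjusted p = 0.325), at 210.9, 118.4 and 166.0 CPM in WT and 258, 536, 206 and 327 CPM in ZsGpos units. Without WT 02 or WT 03 the Rps14 call was lost. Without WT 01 or ZsGpos 02 the count of members rose to 2, beside 34 and 47 of all genes. Over the fits without 1 unit the edgeR adjusted p of Rps14 lay between 0.0131 and 0.0730. With DESeq2, 6 of the 77 were lower and 1 higher, against 1.74% of all genes lower and 213 of 18931 genes higher.

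The 3 comparisons share their units, so that their results are not independent of each other. Set side by side, the log2 fold changes of Rplp0 were 0.87 for ZsGneg against WT, -0.71 for ZsGpos against WT and -1.58 for ZsGpos against ZsGneg. Those of Rps27l were 0.19, -0.92 and -1.11, and those of Rpl39 were 0.63, -0.04 and -0.68.

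**Figure D3:**
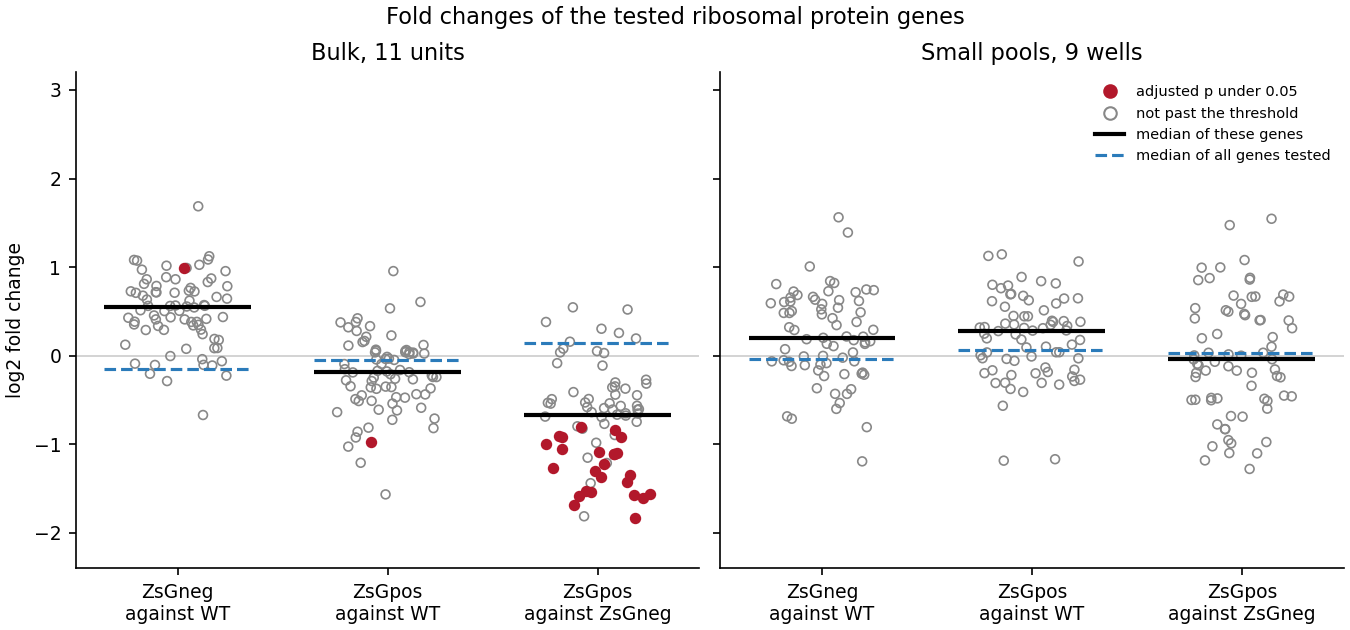
Log2 fold changes of the tested ribosomal protein genes in 3 comparisons, in bulk (77 genes, 11 units) and in small pools (73 genes, 9 wells). Each point is a gene, filled where its adjusted p was under 0.05, the black line is the median of these genes and the dashed line that of all genes tested. In bulk the median for ZsGpos against ZsGneg is -0.67 with 25 genes filled, and in pools no gene is filled.

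The rest of the translation machinery was read from lists, and their members are counted here without a test of the list. Over all genes tested between ZsGpos and ZsGneg units, 2.04% were lower and 0.623% higher, and the median log2 fold change was 0.14. Between ZsGpos and ZsGneg bulk units, 14 of 75 mitochondrial ribosomal proteins tested (18.67%) were lower and 0 higher, with a median log2 fold change of -0.79. Mrpl38 fell from 450.1 to 204 CPM on average (log2 fold change -1.21, edgeR adjusted p = 0.00341), and it was also lower in ZsGpos than in WT units (-1.22, 0.0172), as was Mrpl13 (-1.54, 0.0310). Their genes are nuclear and serve the ribosome of mitochondria. Of 9 other cytosolic ribosomal genes tested, 5 were lower and 0 higher. They included Fau (-1.65), made as a fusion with a ubiquitin-like protein, Rps3a1 (-1.03), Rpl36al (-0.93) and Rpsa (-0.93).

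Of 35 translation factors tested, 8 (22.86%) were lower and 0 higher, with a median of -0.58. They included Eef1a1 (-0.81) and Eef1b2 (-1.07), which bring aminoacyl-tRNA to the ribosome and recharge that carrier, Eif3k (-1.74) and Eif3m (-1.76) of initiation factor 3, and Eif2s1 (-1.50). Of 51 ribosome biogenesis genes, 2 (3.92%, near the share of all genes) were lower, Npm1 (-0.86) and Polr1c (-1.32), and the median was -0.17. Among 18 growth regulators 0 were lower and 1 was higher, Cdkn1a, a CDK inhibitor induced by p53 (1.51, edgeR adjusted p = 0.0359), and the median was 0.69. In ZsGneg against WT units no gene of these lists passed.

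The pattern of the summed ribosomal protein genes over the 11 bulk units was most like that of 3 genes outside the rule, Gm10269 (Pearson r = 0.98), Gm15427 (0.98) and Gm10076 (0.97), on log2 CPM with a pseudocount of 1. The points share library and depth. Whether these 3 rows are copies of ribosomal protein genes that can share reads with them was not tested. Gm15427 had 194.1 to 229 CPM in WT, 273.6 to 383.8 in ZsGneg and 142.7 to 185.8 in ZsGpos units.

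Small pools of 100 cells gave no call on any ribosomal protein gene. On plate SCGC1373, where each group had 3 wells, 73 members were among the 731 genes tested. By edgeR and by DESeq2, 0 of the 73 passed in each of the 3 comparisons, where edgeR called 3.69% of all genes for ZsGpos against ZsGneg, 0.547% for ZsGneg against WT and 2.74% for ZsGpos against WT. At an unadjusted p under 0.05 these were 10, 3 and 3 of the 73, against 18.2%, 14.4% and 18.3% of all genes. The members' share of gene counts was 10.3%, 7.83% and 11.9% in ZsGneg, 9.10%, 5.44% and 8.77% in ZsGpos and 8.003%, 10.8% and 5.17% in WT wells, which overlapped.

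In these pools the members lay about evenly around 0 between the Eed populations. The members' median log2 fold change for ZsGpos against ZsGneg was -0.04, against 0.03 for all genes, and 34 of the 73 lay above 0, against 51.2%. For ZsGneg against WT the median was 0.20, against -0.04, with 46 of the 73 above 0 (47.5% of all genes). For ZsGpos against WT it was 0.28, against 0.06, with 49 of the 73 above 0 (54.0%). Rps14 had 2705, 2199 and 3202 CPM in ZsGneg, 2284, 1003 and 3583 CPM in ZsGpos and 2816, 3484 and 1890 CPM in WT wells. All 3 groups overlapped. Rps29 was at 1411, 1405 and 2274 CPM in ZsGneg, 582, 219 and 856 CPM in ZsGpos and 499, 871 and 378 CPM in WT wells. Its ZsGneg wells lay above all others, yet the log2 fold change for ZsGpos against ZsGneg was -1.28 with an SE of 0.469 (edgeR adjusted p = 0.159), and for ZsGneg against WT 1.56 (SE 0.508, 0.156).

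The other extremes in pools also missed the threshold. Rpl14 was highest for ZsGpos against ZsGneg (1.55) and lowest for ZsGneg against WT (-1.19), with edgeR adjusted p of 0.169 and 0.416. For ZsGpos against WT, Rps7 was highest (1.14) and Rpl12 lowest (-1.19), with edgeR adjusted p of 0.163 and 0.340.

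In single cells each group is 1 sample, so that levels carry only counting intervals and no test was made. Ribosomal protein genes took 3.70% (95% exact binomial interval 3.699% to 3.705%) of gene counts in WT and 4.8003% (4.797% to 4.804%) in Eed cTECs. In single mTEChi cells they took 2.99% (2.986% to 2.993%) in WT, 3.30% (3.301% to 3.307%) in ZsGneg and 3.16% (3.153% to 3.161%) in ZsGpos cells. Among cells the quartiles were at 2.69% to 4.56% in WT cTECs, 3.69% to 5.81% in Eed cTECs and 1.80% to 4.03%, 2.26% to 4.13% and 2.13% to 3.95% in the 3 mTEChi groups, so that cells of all groups overlapped. By plate, the 4 WT values were 3.205%, 3.50%, 3.28% and 2.14%, those of ZsGneg 3.37%, 3.53%, 3.19% and 2.96% and those of ZsGpos 3.38%, 2.998%, 3.28% and 3.39%, for plates SCGC1373, SCGC1379, SCGC1380 and SCGC1381. The low WT value is that of plate SCGC1381, on which 2 ZsGpos cells were kept. Without that plate the shares were 3.33% in WT, 3.40% in ZsGneg and 3.16% in ZsGpos cells.

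In single mTEChi cells, no ribosomal protein gene was past 1.5-fold between the Eed populations. Of 77 members at 10 CPM or more in both groups, 0 were past 1.5-fold in either direction for ZsGpos against ZsGneg, where 9.21% of all genes were higher and 7.41% lower. The median fold was 0.94, against 0.98 for all genes, and 14 of the 77 had a fold above 1 (46.8%). The largest fold was that of Rps4l, 135 against 102.1 CPM (1.32, 95% counting interval 1.28 to 1.36), followed by Rpl22 (1.17) and Rpl3 (1.11). The lowest were those of Rplp2 (0.76), Rpl38 (0.80) and Rps15 (0.82). Rps14, at 559 CPM in ZsGneg and 524 CPM in ZsGpos cells, had 503 CPM in WT cells. The bulk and single-cell differences were not tested against each other.

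Against WT, 1 of the 77 members was past 1.5-fold in ZsGneg cells and in ZsGpos cells alike, Rpl29, and 0 were lower. Over all genes 5.36% were higher and 8.05% lower in ZsGneg cells, and 9.02% and 10.9% in ZsGpos cells. The median fold of the members was 1.11 for ZsGneg against WT, with 74 of the 77 above 1 (49.7% of all genes). It was 1.03 for ZsGpos against WT, with 55 above 1 (48.1%). These folds include plate SCGC1381, where members took 2.14% of gene counts in WT cells, against 3.205%, 3.50% and 3.28% on the other plates. Without that plate the ZsGneg share, given above, lay nearer that of WT and the ZsGpos share lay below it. Median folds without that plate are not given here. Rpl29 had 109.6 CPM in WT, 225 CPM in ZsGneg and 203 CPM in ZsGpos cells, folds of 2.05 and 1.85. The next were Rpl27 (1.28) and Rplp2 (1.23) in ZsGneg cells and Rps4l (1.46) and Rpl22 (1.29) in ZsGpos cells. The lowest in ZsGneg cells were Rpl21 (0.76), Rps16 (0.97) and Rpl10 (1.00), and in ZsGpos cells Rpl21 (0.70), Rps15a (0.92) and Rplp2 (0.93).

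The folds of Rpl29 and Rpl21 differed between plates. On plate SCGC1373, Rpl29 was at 128.4, 124.5 and 125.6 CPM in WT, ZsGneg and ZsGpos cells, a fold of 0.97 for ZsGneg against WT. On plates SCGC1379, SCGC1380 and SCGC1381 this fold was 2.17, 2.04 and 2.98. Rpl21 was at 210.5, 245.1 and 245.0 CPM on plate SCGC1373, but at 287, 161.8 and 127.3 CPM on plate SCGC1379. Its fold for ZsGneg against WT was 1.16, 0.56, 0.42 and 1.45 on the 4 plates, and without plate SCGC1381 Rpl21 also passed as lower in ZsGneg (0.66) and in ZsGpos cells (0.56). The Rpl29 difference was thus present on 3 of the 4 plates and not on plate SCGC1373, while Rpl21 changed direction between plates. In bulk, Rpl29 had 146.2, 59.3 and 232.7 CPM in WT units and 161.4, 287, 293 and 251 CPM in ZsGneg units, which overlapped.

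**Figure D4:**
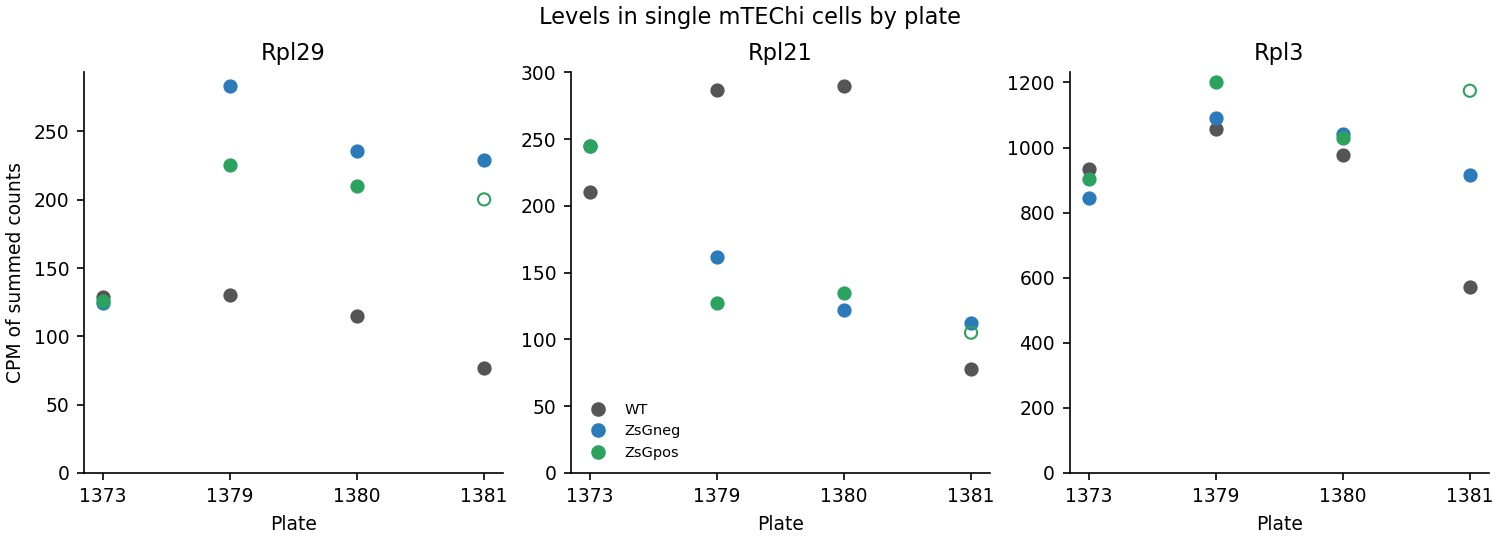
Levels (CPM of counts summed over cells, linear axes from 0) of Rpl29, Rpl21 and Rpl3 in single WT, ZsGneg and ZsGpos mTEChi cells on each of the 4 plates. Open circles stand for groups with under 10 cells. Rpl29 lies at 124.5 to 128.4 CPM in all 3 groups on plate SCGC1373 and above WT in both Eed groups on the other plates, and the order of the groups for Rpl21 differs between plates.

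In single cTECs, more ribosomal protein genes were higher in Eed than in WT cells past 1.5-fold than over all genes, and about as many were lower. Of 72 members at 10 CPM or more in both groups, 27 were higher past 1.5-fold in Eed cTECs (14.6% of all genes) and 15 lower (16.1%). The median fold was 1.36, against 0.98 for all genes, and 52 of the 72 had a fold above 1 (48.3%). The cTEC labels name wells but no plates, so a difference between plates cannot be told apart from genotype. Cell type markers also differed. The 12 cTEC markers, all detected, summed to 10901 CPM in WT and 1735 CPM in Eed cTECs, with Psmb11 at 792 against 34.4 CPM and Prss16 at 3454 against 220 CPM. The fibroblast markers summed to 2387 CPM, with Pdgfra at 0, against 5938 CPM. The part of these differences in the ribosomal protein genes was not tested.

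The genes that were higher spanned both subunits. Rpl8 was at 433 CPM in WT and 933 CPM in Eed cTECs (fold 2.16, 95% counting interval 2.14 to 2.18), Rplp1 at 624 against 1314 CPM (2.11) and Rplp0 at 1439 against 2261 CPM (1.57). Among members of known role, Rpl3 (2.05), Rps25 (1.83), Rpl5 (1.77), Rps3 (1.77), Rpl22 (1.70), Rpl4 (1.61), Rps4x (1.53) and Rps2 (1.51) were past 1.5-fold. Rps14 (1.46), Rpl13a (1.41), Rps28 (1.40), Rps4l (1.34), Rpl38 (1.33), Rpl10a (1.30), Rps6 (1.27), Rps19 (1.25), Rps27l (1.06), Rps29 (1.01), Rpl11 (0.98) and Rpl39 (0.71) were not.

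The share of members that were lower was near that of all genes, but some of them differed by far more than 1.5-fold. Rps16 was at 482.6 CPM in WT and 10.3 CPM in Eed cTECs (fold 0.0214, 95% counting interval 0.0204 to 0.0225). Rps23 was at 507 against 15.1 CPM (0.0299), Rps27a at 605 against 20.1 CPM (0.0332) and Rps27 at 579 against 52.8 CPM (0.0912). The median cell had 428 CPM of Rps16 in WT and 6.04 CPM in Eed cTECs, and counts were present in 99.3% and 91.2% of cells. Rpl27 (184.6 CPM in WT) and Rps12 (94.2 CPM in WT) were below 10 CPM in Eed cTECs, at 7.06 and 9.77 CPM. With its -ps rows added, Rps12 had 117.9 CPM in WT and 113.5 CPM in Eed cTECs, a fold of 0.96. Rpl10 (0.42) and Rplp2 (0.52) were also lower past 1.5-fold.

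A few gene rows were the other way round, with few counts in WT cTECs. Rpl23a was at 1.77 CPM in WT and 55.2 CPM in Eed cTECs, Rpl17 at 3.54 against 59.9 CPM, Rpl29 at 9.52 against 53.5 CPM and Rpl21 at 12.5 against 33.7 CPM. With the -ps rows added, Rpl17 had 35.9 CPM in WT and 117.8 CPM in Eed cTECs, a fold of 3.28. The fold of Rpl21 alone, 2.69, was the highest among the 72. Rpl23a had a count in 12.2% of WT cTECs and in 98.8% of Eed cTECs.

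Some of the same genes differed between kinds of mTEChi library, and those below also differed between single WT mTEChi cells and WT cTECs. Rps16 was at 20.1, 19.5 and 19.6 CPM in single WT, ZsGneg and ZsGpos mTEChi cells and at 11.9, 35.8 and 41.6 CPM on average in the pools, but at 431 CPM on average in WT bulk units. Rps23 was at 28.5 CPM in single WT mTEChi cells and at 62.2 CPM in WT pools, against 552 CPM in WT bulk units. Rpl27 was at 17.7 CPM in single WT mTEChi cells and 23.8 CPM in WT pools, and its WT bulk units were uneven, at 42.4, 218.6 and 40.7 CPM. In WT cTECs, Rps16, Rps23 and Rpl27 were at 482.6, 507 and 184.6 CPM, far above single WT mTEChi cells. Rpl23a, Rpl17 and Rpl21 went the other way, with 201.8, 129.0 and 215 CPM in single WT mTEChi cells, far above WT cTECs. Depth and the number of cells per library differ between bulk, pools and single cells, whereas cTECs and single mTEChi cells are both single-cell libraries. The levels of 1 gene across these groups were not tested.

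**Figure D5:**
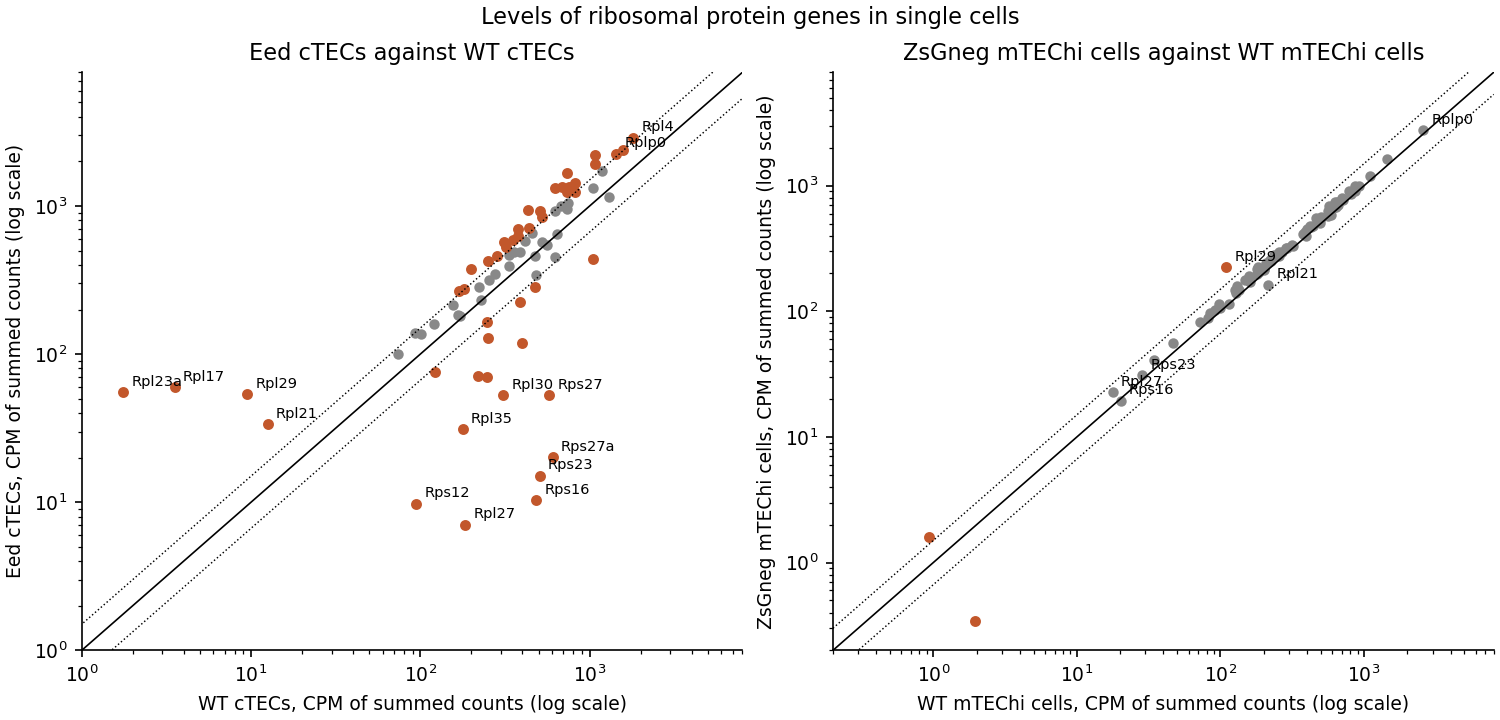
Levels (CPM of summed counts, log scales) of ribosomal protein genes in Eed against WT cTECs and in ZsGneg against WT mTEChi cells. Each point is a gene, coloured where past 1.5-fold at any level, the solid line is equality, the dotted lines are 1.5-fold, and genes without a count or below the axis in a group are not shown. In cTECs points spread from Rps16 at 10.3 against 482.6 CPM to Rpl23a at 55.2 against 1.77 CPM, whereas in mTEChi cells the points other than Rpl29 lie close to the line except below 10 CPM.

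Processed copies bear on how these rows are read. Of the 80 members, 56 have at least 1 -ps row, with 22 for Rpl31, 21 for Rps12, 14 each for Rpl23a and Rps19 and 12 for Rpl21. Of the 245 -ps rows, 10 had no count in any library and 58 reached 10 CPM in WT bulk units. Reads that align to several places are in a row of their own in the deposited table, so that a gene and a near-identical copy can both lose reads, and levels of such genes are uncertain.

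For every 100.0 counts on members there were 8.19 to 9.51 on -ps rows in WT, 8.43 to 9.93 in ZsGneg and 9.78 to 11.4 in ZsGpos bulk units. In single cells there were 1.33 in WT and 3.204 in Eed cTECs, and 3.93, 3.64 and 3.75 in WT, ZsGneg and ZsGpos mTEChi cells. Reads without a unique place made up a median of 6.77% in WT and 8.20% in Eed cTECs, and 4.59%, 4.99% and 5.28% in the mTEChi groups. In bulk they were 7.19% to 9.08% in ZsGneg, 5.53% to 5.80% in WT and 5.22% to 6.04% in ZsGpos units, highest in the units with the highest share of ribosomal protein genes.

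Of the 14 -ps rows at 10 CPM or more in both cTEC groups, 10 were higher past 1.5-fold in Eed cTECs and 0 lower, where 14.6% and 16.1% of all genes were. Other -ps rows had counts mainly in Eed cTECs. Rplp0-ps1 was at 0.857 CPM in WT and 160.2 CPM in Eed cTECs, Rpl18-ps1 at 0.167 against 103.0 CPM, and Rps19-ps4, which is among the 14, at 10.0 against 107.8 CPM. Rplp0-ps1 had 4.62 CPM in WT, 0.153 in ZsGneg and 0.165 in ZsGpos bulk units and 0.213 CPM in single WT mTEChi cells. With the -ps rows added to their member, 28 of 74 members were higher past 1.5-fold in Eed cTECs and 12 lower, with a median fold of 1.38, again beside 14.6% and 16.1% of all genes. Of the 15 members lower on their own, Rpl18 (fold 0.86), Rpl19 (0.82) and Rpl31 (0.88) were then no longer past 1.5-fold. Rps16 then had 487.1 CPM in WT and 53.3 CPM in Eed cTECs, a fold of 0.11 in place of 0.0214.

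Between ZsGpos and ZsGneg bulk units, 7 of the -ps rows tested (5.98%) were lower and 0 higher, beside 2.04% and 0.623% of all genes, with a median log2 fold change of -0.46 against 0.14. Rps19-ps6 fell from 287 to 119.8 CPM on average (log2 fold change -1.33, edgeR adjusted p = 0.00180), and Rpl3-ps1 from 359 to 147.9 CPM (-1.34, 0.00580). The parent genes of these copies, Rps19 and Rpl3, had log2 fold changes of -1.27 and -1.81, of which that of Rps19 passed.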

How the data were processed

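The deposited table holds raw read counts per gene, made by the authors and not normalized. Per the submitters' processing notes the build was mm10 and the tools included HTSeq, HISAT 0.1.6, Trimmomatic, MACS2, FastQC and BWA 0.5.9, without saying which step each served. No source used here states the strand setting. Reads outside genes, ambiguous reads and reads without a unique place have rows of their own per the file's row names, and these were left out of totals and tests.

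Levels are CPM, counts scaled to a common total of gene counts. Bulk units and pools were compared with edgeR 4.0.16 (filterByExpr, TMM, quasi-likelihood test, Benjamini-Hochberg adjusted p of 0.05) over all genes in 1 fit of the 3 groups, and with DESeq2 1.42.0 as an alternative, in R 4.3.3. Fold changes use TMM factors and CPM does not. Single cells were kept with at least 50000 gene counts, at least 1000 genes and at most 30% mt- counts, and summed by group. No doublet caller was run, and 3 wells without template on plate SCGC1380 would have met the same limits. A fold of 1.5 with 10 CPM or more in both groups was the rule there, with 95% intervals that cover counting error only, since the reads carry no molecular identifiers. Scripts were tested on simulated data. Alternatives were other size factors, no filter, separate WT libraries, a replicate block, covariates and leaving out each unit.

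The members and lists were chosen with earlier results of these data known. Genes were named by role, by lowest adjusted p and by extreme values. Levels per kilobase were not used, because no exon lengths were at hand. RefSeq gave locations and promoter sequences. Repeat runs and immunoprecipitation libraries were not analysed here. Results for a few genes are not reported here.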

Additional observations from a re-analysis of the deposited data

Results flagged for a closer look

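Among 72 sets of 4 bulk units, 8 held a unit that stood apart from the other 3. The rule marks about 1 set in 20 where sets are independent and normally spread. These sets share units and some genes were named for extreme values, so the rates cannot be compared. In ZsGneg these were Rpl27a in unit 02 (296.44 CPM) and Rps4x in unit 01 (1296 CPM). In ZsGpos unit 01 they were Rps14 (762.8 CPM), Rps27 (872.2 CPM) and Rps27a (200.4 CPM). In ZsGpos unit 02 they were Rplp0 (699.4 CPM) and Rps27l (325.5 CPM), and in ZsGpos unit 03 it was Rpl22 (297.0 CPM).

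Of 14 wells without template, 3 on plate SCGC1380 held counts on ribosomal protein genes at the level of a library. They had 3618, 5237 and 5672 such counts, 6.98%, 7.12% and 8.41% of their gene counts. These 3 wells held 51838 to 73567 gene counts, 1783 to 3497 genes and 3.08% to 5.58% mt- counts. They would thus have met the limits set for kept cells. What this means for the kept cells of that plate was not tested. The other 11 wells held 3 to 378 gene counts and at most 21 on these genes.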

How the results depend on the processing

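The members' median log2 fold change kept its sign in each bulk comparison under other size factors, DESeq2, no filter on low counts and the leaving out of each unit. The range over units left out was -0.72 to -0.60 for ZsGpos against ZsGneg, 0.44 to 0.62 for ZsGneg against WT and -0.26 to -0.08 for ZsGpos against WT. With the outside-gene read share added as covariate the medians were -0.0731, 0.14 and 0.0176. In these fits 0 members passed in any comparison, beside 0, 0 and 7 of all genes. Rpl38 then had 0.06 (0.055) for ZsGpos against ZsGneg (edgeR adjusted p = 1.0).

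The count of members past the threshold moved with the settings, and the cause was not tested. For ZsGpos against ZsGneg it was 40 with DESeq2, 35 without a filter and 19 to 25 without 1 unit. Over all genes these fits called 1993, 837 and 306 to 505, against 504 in the main fit. Without a filter 34551 genes were tested. For ZsGneg against WT the count of members was 26 with DESeq2, 14 without a filter and 16 with the 9 WT libraries as separate samples. It was 2 with RLE size factors, 2 without mt- genes, 0 with only the 2 compared groups and 0 to 1 without 1 unit. Over all genes these fits called 519, 127, 140, 8, 9, 1 and 0 to 5, against 8 in the main fit. For ZsGpos against WT the count of members was 7 with DESeq2, 12 without a filter, 8 with 9 WT libraries and 0 to 2 without 1 unit. Over all genes these fits called 542, 287, 304 and 9 to 93, against 72 in the main fit. With the replicate block, 23, 0 and 1 members passed in the same order, beside 342, 1 and 57 of all genes. The labels do not say that units of equal number share an animal, so the numbers were not taken to pair them.

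In pools, medians without a filter were 1.05 for ZsGpos against WT and 0.75 for ZsGneg against WT, and 0 members passed in any fit without 1 well. With mt- genes left out, the mean share of ZsGpos bulk units was 3.999%. In single cells the counting interval is so narrow that most settings moved the share. With at least 100000 gene counts and 2000 genes it was 3.695% in WT cTECs and 2.993%, 3.289% and 3.174% in WT, ZsGneg and ZsGpos mTEChi cells. Without a limit on mt- counts it was 3.697% and 4.786% in WT and Eed cTECs and 3.293% in ZsGneg cells. As a mean over cells it was 3.746%, 4.782%, 3.116%, 3.364% and 3.296%, and with mt- genes left out 3.812%, 4.959%, 3.118%, 3.463% and 3.308%, for WT and Eed cTECs and WT, ZsGneg and ZsGpos mTEChi cells. Without plate SCGC1381, a setting chosen after seeing the data, it was 3.325% in WT and 3.401% in ZsGneg cells, and 2 members were past 1.5-fold in each Eed population against WT.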

Other observations

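Small pools outside plate SCGC1373 entered no main comparison, since each plate held 1 group. The 3 WT wells of plate SCGC1379 had 8.31%, 7.25% and 6.31% of gene counts on ribosomal protein genes. The 3 ZsGpos wells of plate SCGC1381 had 0%, 9.69% and 8.17%, the first of them with 68 gene counts in all.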
